A study of Danio rerio with 26 samples.

Results

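DNA replication and mitosis genes were followed through 4 tables of gene expression from zebrafish embryos. The tables compared embryos mutant for a subunit gene of the exon junction complex (EJC), or injected with a morpholino against upf1, with their controls. The set held 44 genes listed by symbol, 20 for DNA replication and 24 for mitosis, and 42 of the 44 symbols were found in each table. mcm7 and birc5a had no row under that symbol, and rrm2 had 2 rows, so that 19 replication genes gave 20 rows and 23 mitosis genes gave 23 rows. These 43 rows stood among 30919 rows in the magoh table, 30948 and 30944 rows in the rbm8a tables at 21 and 27 hours post-fertilization (hpf), and 28441 rows in the upf1 table.

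The study compared RNA-Seq libraries of pooled whole embryos, made from total RNA without ribosomal RNA for the mutants and from poly(A) RNA for upf1, and 22 of its 26 samples were used here. The magoh mutants carried the frameshift allele magoh oz37 in homozygous form and the rbm8a mutants the frameshift allele rbm8a oz36. Both kinds of mutant came from crosses of heterozygous fish, and maternal product of the mutated gene is still present in such embryos. Each was set against pooled siblings from these crosses, among which wild-type and heterozygous fish were not separated, with 3 mutant and 3 sibling libraries at 21 hpf for magoh, and at 21 hpf and 27 hpf for rbm8a. The upf1 morphants were wild-type embryos injected at the 1-cell stage with a morpholino that blocks splicing of upf1, and 2 morphant libraries were set against 2 libraries of uninjected controls at 12 hpf. Because the controls were not injected, effects of injection or of the morpholino itself cannot be told apart from those of lower upf1. The labels do not say that the 2 libraries of a group came from separate clutches, so the upf1 p-values measure only the spread between these libraries.

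Chromosomes are copied in S phase and pulled apart in mitosis, and the genes for both processes are transcribed in dividing cells in a fixed order. Origins are licensed when Orc1, Cdc6 and Cdt1 load the Mcm2 to Mcm7 helicase onto DNA, and Geminin, the product of gmnn, blocks Cdt1 afterwards; polymerases then copy the strands around the sliding clamp Pcna. Entry into mitosis depends on Cdk1 with A- and B-type cyclins, after which Polo-like and Aurora kinases, kinesins and the kinetochore checkpoint order the separation of the chromatids. In the zebrafish embryo the brain, spinal cord and eye hold many dividing progenitors at these stages. In RNA from whole embryos, fewer dividing cells and less RNA per cell cannot be told apart.

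Every level below is in FPKM (fragments per kilobase of gene, scaled by a size factor of each library), a unit that corrects for gene length. The size factor stands for sequencing depth but does not follow the read total, so summed levels can differ between libraries of a table. In the magoh table, mutant replicate 1 had more reads than sibling replicate 1 but a smaller size factor. Differences are on the log2(FPKM + 1) scale, which understates the change of low genes, and are given with their standard error from a limma fit across all genes. A gene was called when its Benjamini-Hochberg adjusted p was under 0.05 and it differed by at least 1.5-fold. The 4 tables were normalized separately, so levels are compared only within a table.

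Libraries of the same group differed widely in the mutant tables. Recovered read numbers ran from 14884582 to 24086370 in the magoh table, from 1561184 to 71708299 in the rbm8a table at 21 hpf, from 9193992 to 95877745 in that at 27 hpf, and from 73345144 to 93157779 in the upf1 table. In the magoh table, mutant replicate 1 and sibling replicate 2 correlated at 0.952 with each other and at 0.681 to 0.756 with the other 4. At 21 hpf, rbm8a mutant replicate 2 was the library of 1561184 reads, and its correlations with the other 5 were 0.713 to 0.783. In the upf1 table all correlations lay between 0.989 and 0.997.

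The targeted gene did not separate the mutant libraries by their labels. At 27 hpf the rbm8a level was 3.69, 3.65 and 14.4 FPKM under the mutant label, against 2.82, 12.7 and 10.7 FPKM under the sibling label. At 21 hpf it was 7.01, 7.28 and 8.39 FPKM under the mutant label, against 6.99, 13.2 and 13.3 FPKM under the sibling label. In both rbm8a tables the first 3 columns of the table held the 3 lowest rbm8a values. magoh was 17.0, 3.67 and 3.58 FPKM under the mutant label, against 4.42, 13.6 and 6.51 FPKM under the sibling label, and was low and high under both labels. The mutant tables are therefore given by label and then, as a description with no test, by place (first 3 columns against last 3). Differences by place are of plain means, with no term for unwanted variation between libraries. Differences by label come from a fit that held such a term. In the upf1 table upf1 was 30.3 and 31.3 FPKM in the morphants, against 45.2 and 45.9 FPKM in the controls.

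**Figure D1:**
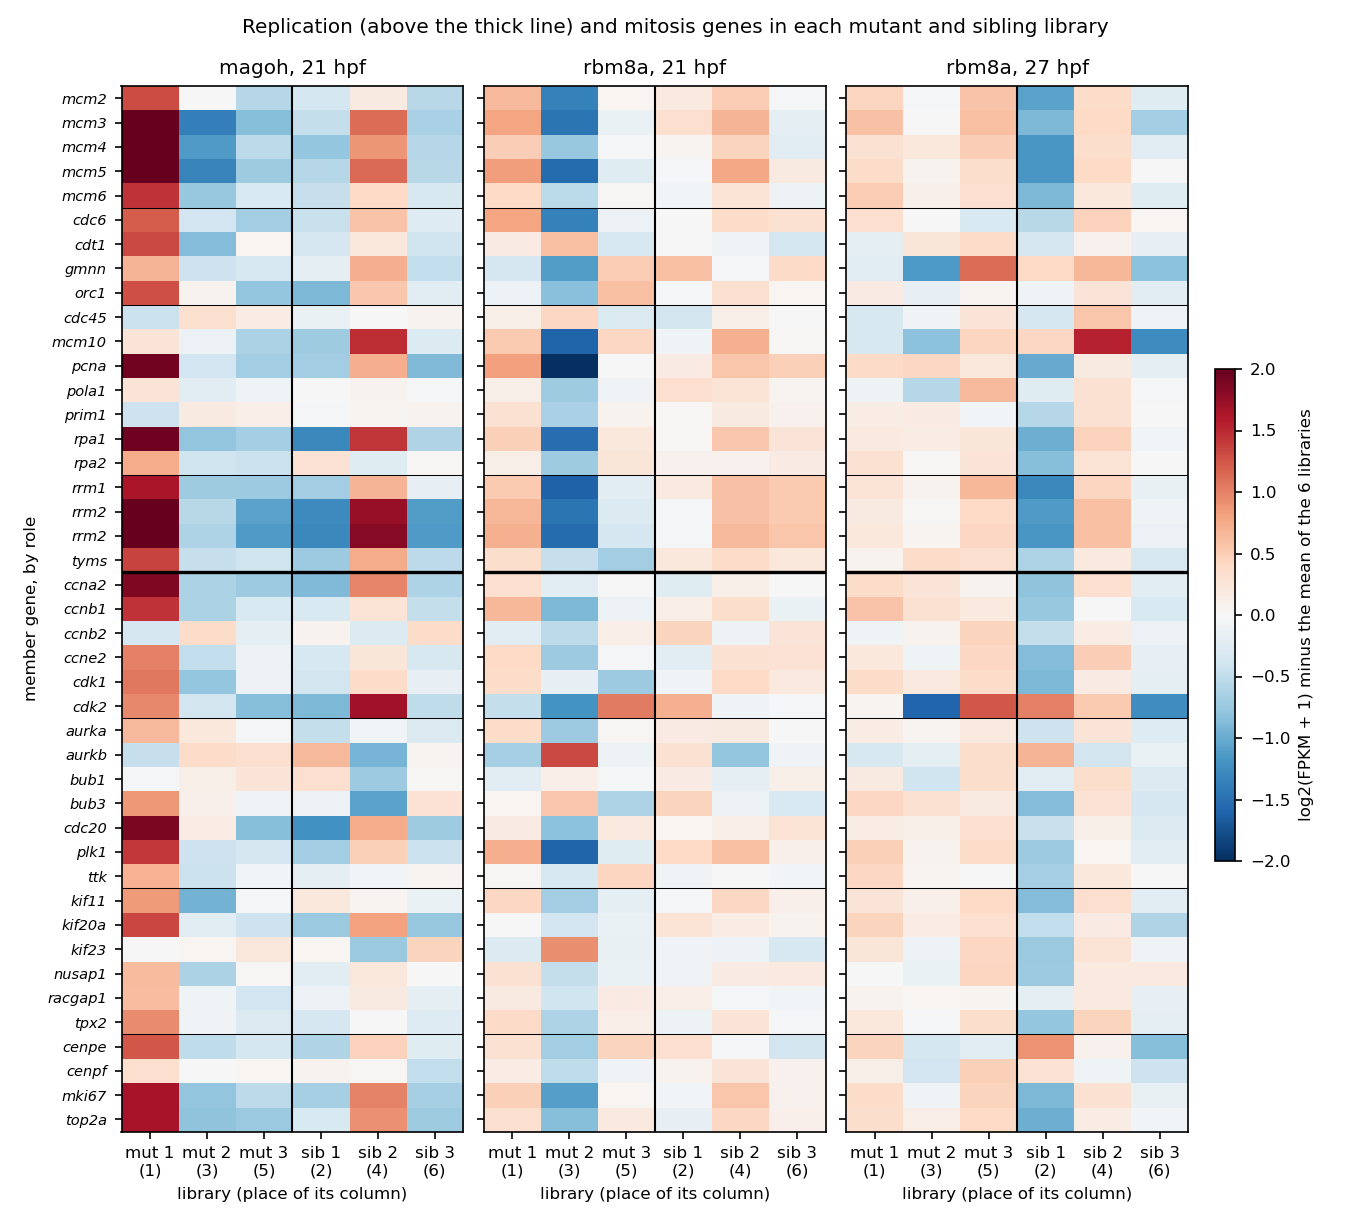
Level of each replication and mitosis row in each library of the 3 mutant tables, as the difference from the row's mean over its 6 libraries on the log2(FPKM + 1) scale, with mutant libraries left of siblings and the place of the column in brackets. Whole columns stand out: magoh mutant replicate 1 was the highest library for 16 of 20 replication rows, beside 31.6% of all genes. The lowest library was rbm8a mutant replicate 2 at 21 hpf for 17, beside 40.8% of all genes. At 27 hpf it was rbm8a sibling replicate 1 for 16, beside 20.2% of all genes.

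The upf1 table, the most even of the 4, showed small shifts of the replication genes. None of the 43 rows was called at 1.5-fold, beside 191 genes higher and 202 lower in morphants, together 2.3% of the 17057 genes tested. limma-voom on recovered reads also called 0 of the 43 rows at that fold, and at an unadjusted limma p under 0.05 there were 27 rows, 5 higher and 22 lower, beside 38.9% of all genes. At an adjusted p under 0.05 with no fold threshold, 0 replication rows were higher and 6 were lower. Over all 43 rows these numbers were 3 higher, 6.98% beside 11.2% of all genes, and 13 lower, 30.2% beside 12.8% of all genes. The median difference of the 20 replication rows was -0.14, and 2 of 20 lay above 0, beside a median of 0.00 over all genes.

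The MCM helicase unwinds the DNA ahead of the fork, and its genes were among the most abundant of the set. mcm2 (ENSDARG00000102798) stood at 197 and 179.7 FPKM in the morphants, against 225 and 229.7 FPKM in the controls. Both morphant libraries lay below both controls, and mcm2 fell in morphants by 0.27 ± 0.05 (SE) on the log2 scale with an adjusted p of 0.016 by limma. mcm4 was 165 and 155 FPKM in the morphants, against 179 and 177 FPKM in the controls, and mcm5 was 177 and 156 FPKM in the morphants, against 188 and 190.4 FPKM in the controls. Neither mcm4 nor mcm5 passed, with differences of -0.15 ± 0.04 and -0.18 ± 0.06. mcm3 was 194 and 169.8 FPKM in the morphants, against 185 and 187 FPKM in the controls, where the groups overlapped, and mcm6 was 148 and 137 FPKM in the morphants, against 152 and 152 FPKM in the controls, where they did not. All 5 MCM differences were below 0, with a median of -0.15.

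Genes for licensing moved less. cdc6, the loader of the helicase, was 38.7 and 35.1 FPKM in the morphants, against 42.6 and 40.7 FPKM in the controls, a difference of -0.17 ± 0.06 with an adjusted p of 0.072 by limma. cdt1, the partner of cdc6 in loading, stood at 34.01 and 30.3 FPKM in the morphants, against 29.8 and 30.7 FPKM in the controls, and gmnn, its inhibitor, at 25.2 and 24.2 FPKM in the morphants, against 25.1 and 24.7 FPKM in the controls. orc1, a subunit of the origin recognition complex, had 16.8 and 15.5 FPKM in the morphants, against 16.8 and 16.6 FPKM in the controls. The morphants and controls overlapped for cdt1, gmnn and orc1, whose differences were 0.08 ± 0.06, -0.01 ± 0.04 and -0.05 ± 0.05.

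At the fork, pola1, the catalytic subunit of the polymerase that starts each strand, was 25.2 and 24.2 FPKM in the morphants, against 30.4 and 29.5 FPKM in the controls. It fell by 0.27 ± 0.04 (SE) in morphants with an adjusted p of 0.0081 by limma. rpa2, a subunit of the protein that coats single-stranded DNA, was 56.6 and 53.8 FPKM in the morphants, against 62.7 and 64.5 FPKM in the controls, and fell by 0.20 ± 0.04 (SE), with an adjusted p of 0.019 by limma. The groups did not overlap for either gene. Its partner rpa1 stood at 90.7 and 85.6 FPKM in the morphants, against 93.7 and 96.1 FPKM in the controls, and prim1, the primase that works with Pola1, at 25.8 and 24.8 FPKM in the morphants, against 27.6 and 28.5 FPKM in the controls. Both were lower in both morphants without passing the test, at -0.11 ± 0.04 and -0.14 ± 0.04. pcna, the sliding clamp and the most abundant row of the set, went the other way with 611 and 566 FPKM in the morphants, against 537 and 529 FPKM in the controls. Both morphants were above both controls, and the difference of 0.14 ± 0.05 did not pass, with an adjusted p of 0.10 by limma. cdc45, a part of the active helicase and the least abundant gene of the fork, had 13.2 and 11.9 FPKM in the morphants, against 13.1 and 13.6 FPKM in the controls. cdc45 and mcm10, which helps to activate the helicase, had differences of -0.08 ± 0.06 and -0.01 ± 0.06 with overlapping groups.

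Ribonucleotide reductase makes the deoxynucleotides for replication. Its large subunit gene rrm1 was 119.8 and 113 FPKM in the morphants, against 134 and 136 FPKM in the controls, and fell by 0.21 ± 0.04 (SE) in morphants with an adjusted p of 0.016 by limma. The small subunit gene rrm2 had 2 rows of nearly equal values. The row ENSDARG00000020711 held 149 and 139 FPKM in the morphants, against 167 and 167 FPKM in the controls, and the row ENSDARG00000078069 held 154.3 and 145.5 FPKM in the morphants, against 174 and 174 FPKM in the controls. Both rows passed the test with a fall of 0.21, and since reads of near-identical genes can be shared between them they are uncertain as separate results. tyms, which makes thymidylate, was 17.04 and 16.6 FPKM in the morphants, against 19.8 and 17.5 FPKM in the controls, a difference of -0.14 ± 0.06 that did not pass. The second morphant library was the lowest of the 4 for 18 of the 20 replication rows, beside 24.5% of all genes. The first morphant library was lowest for 0 of 20, beside 26.3% of all genes.

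The mitosis genes went both ways in upf1 morphants. At an adjusted p under 0.05 with no fold threshold, 3 of 23 were higher, a share near the 11.2% of all genes. At the same threshold 7 of 23 were lower, a larger share than the 12.8% of all genes. The median difference was -0.05 and 10 of 23 lay above 0. The 3 higher genes were ccnb1, aurka and kif23, and the 7 lower genes were top2a, cdk2, mki67, nusap1, kif20a, ttk and kif11.

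Among cyclins and their kinases, ccnb1 encodes cyclin B1, which drives entry into mitosis with Cdk1. It was 106 and 101 FPKM in the morphants, against 82.4 and 85.2 FPKM in the controls, an increase of 0.30 ± 0.04 (SE) with an adjusted p of 0.0063 by limma. cdk1 itself was 51.7 and 55.2 FPKM in the morphants, against 57.4 and 61.3 FPKM in the controls, and did not pass at -0.15 ± 0.05. cdk2, a kinase of S phase that works with cyclins E and A, was 12.9 and 12.2 FPKM in the morphants, against 16.7 and 16.01 FPKM in the controls. Both morphants were below both controls, and cdk2 fell by 0.36 ± 0.05 (SE) with an adjusted p of 0.006 by limma. The second B-type cyclin gene, ccnb2, was 20.97 and 21.2 FPKM in the morphants, against 17.2 and 19.4 FPKM in the controls, a difference of 0.20 ± 0.06 with an adjusted p of 0.062 by limma, without overlap. ccna2, for cyclin A, and ccne2, for cyclin E, differed by 0.05 ± 0.04 and -0.01 ± 0.04.

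Of the mitotic kinases and the checkpoint, aurka, an Aurora kinase of the spindle poles, was 54.97 and 53.4 FPKM in the morphants, against 46.01 and 49.2 FPKM in the controls and rose by 0.18 ± 0.04 (SE), with an adjusted p of 0.032 by limma. ttk, a kinase of the spindle checkpoint, was 23.6 and 24.3 FPKM in the morphants, against 26.7 and 26.3 FPKM in the controls and fell by 0.14 ± 0.04 (SE), with an adjusted p of 0.043 by limma. The groups of both genes were separate. aurkb, the Aurora kinase of the chromosomal passenger complex, stood at 81.1 and 78.1 FPKM in the morphants, against 74.4 and 75.3 FPKM in the controls, and plk1, the Polo-like kinase, at 106 and 103 FPKM in the morphants, against 101 and 102 FPKM in the controls. Neither passed, and the checkpoint genes bub1 and bub3 and the activator of the anaphase-promoting complex cdc20 differed by -0.10 ± 0.04, 0.01 ± 0.05 and -0.05 ± 0.03.

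Spindle and cytokinesis genes held changes in both directions. kif23, a kinesin of the central spindle, was 43.1 and 41.7 FPKM in the morphants, against 37.4 and 36.9 FPKM in the controls and rose by 0.18 ± 0.04 (SE), with an adjusted p of 0.018 by limma. kif20a, another kinesin of cytokinesis, was 38.97 and 37.6 FPKM in the morphants, against 43.7 and 43.5 FPKM in the controls and fell by 0.18 ± 0.04 (SE), with an adjusted p of 0.019 by limma. These 2 kinesin genes thus stood on opposite sides, each with separate groups. kif11, the kinesin that keeps the poles apart, was 73.6 and 74.4 FPKM in the morphants, against 80.04 and 81.9 FPKM in the controls, and nusap1, which bundles spindle microtubules, was 29.8 and 31.3 FPKM in the morphants, against 34.9 and 35.95 FPKM in the controls. Both fell, by 0.13 and 0.21, with adjusted p of 0.044 and 0.018 by limma. tpx2, which activates Aurora A, was 121 and 114 FPKM in the morphants, against 116 and 115 FPKM in the controls. racgap1, the partner of Kif23, was 25.5 and 25.5 FPKM in the morphants, against 23.4 and 25.2 FPKM in the controls. Neither passed, at 0.03 ± 0.04 and 0.07 ± 0.05.

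The 4 chromosome and kinetochore genes were all below 0, with a median of -0.23. top2a, the topoisomerase that untangles sister chromatids, had the lowest difference of the 43 rows with 48.2 and 49.1 FPKM in the morphants, against 65.9 and 65.9 FPKM in the controls. It fell by 0.43 ± 0.03 (SE) with an adjusted p of 0.0015 by limma. mki67, which coats mitotic chromosomes and is a marker of dividing cells, was 78.4 and 81.8 FPKM in the morphants, against 100.3 and 99.7 FPKM in the controls, a fall of 0.32 ± 0.04 (SE) with an adjusted p of 0.0042 by limma. cenpf, for a kinetochore protein, was the least abundant of the 4 with 15.6 and 17.02 FPKM in the morphants, against 17.6 and 18.9 FPKM in the controls. The kinetochore motor gene cenpe and cenpf were lower in both morphants without passing, at -0.11 ± 0.03 and -0.15 ± 0.06.

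**Figure D2:**
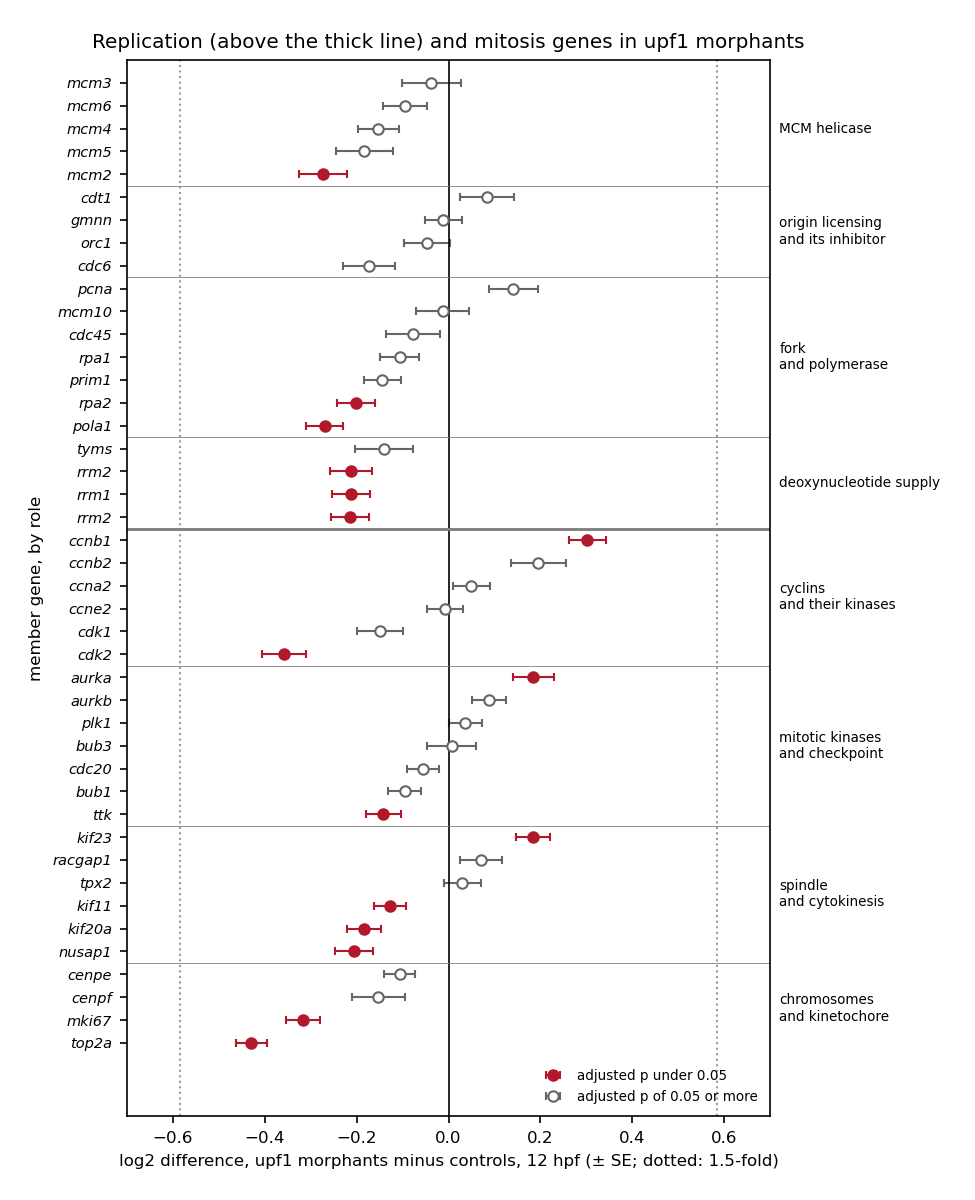
Difference of upf1 morphants minus controls for each row on the log2(FPKM + 1) scale with its standard error, ordered by role, with filled points for an adjusted p under 0.05 and dotted lines at 1.5-fold. All 43 rows lie within the lines, from -0.43 for top2a to 0.30 for ccnb1.

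The groups of 9 rows did not overlap with the morphants higher, 20.9% beside 32.4% of all genes, and those of 25 rows did not overlap with the morphants lower, 58.1% beside 33.9% of all genes. Of the 25 lower rows, 13 were replication rows and 12 mitosis genes. In 10 other settings of the test, top2a, cdk2, mki67 and ccnb1 stayed past an adjusted p of 0.05 in all 10, pola1 in 9, and mcm2, kif23 and kif20a in 7. In the settings that kept every library, the number of rows past it ran from 2 to 5 higher and from 5 to 20 lower. The other settings left a single library in a group, and their counts are not given. The share of all genes past it in each setting is not given here. At an unadjusted limma p under 0.05 that share ran from 26.2% with no filter to 44.8% at an FPKM minimum of 2, beside 38.9% in the main fit.

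Calls at 1.5-fold among other genes of the cell cycle are given beside the 2.3% of all genes called. Of 40 further replication genes 1 was called, pold3, a subunit of polymerase delta, with 7.75 and 8.18 FPKM in the morphants, against 18.3 and 17.1 FPKM in the controls, a fall of 1.06. Of 48 further mitosis genes 1 was called, ncapd2, a condensin subunit, with 34.5 and 35.5 FPKM in the morphants, against 54.3 and 56.4 FPKM in the controls, a fall of 0.65. Both counts were near the share over all genes. With no fold threshold 12 of the 40 replication genes were lower, beside 12.8% of all genes, and 0 higher, beside 11.2%. The median of the 40 genes was -0.16. Of 21 genes in a list of cyclins, CDK inhibitors, btg and tob genes, 5 were called higher and 0 lower. cdkn1a, the inhibitor p21, stood at 19.9 and 21.2 FPKM in the morphants, against 2.44 and 3.67 FPKM in the controls, an increase of 2.43. ccng1, for cyclin G1, which p53 induces, was 348 and 395 FPKM in the morphants, against 94.2 and 109.8 FPKM in the controls, an increase of 1.85. The other 3 were tob1a, cdkn1ba and cdkn2a/b, with increases of 0.65 to 0.67. cdkn2a/b was low throughout, at 0.85 and 1.38 FPKM in the morphants, against 0.51 and 0.16 FPKM in the controls. Of 24 transcription regulators of the cell cycle, rbl2, a member of the Rb family, was 6.92 and 10.6 FPKM in the morphants, against 0.64 and 0.88 FPKM in the controls, an increase of 2.45, and mycb, a Myc gene, was 35.3 and 37.8 FPKM in the morphants, against 15.6 and 16.1 FPKM in the controls, an increase of 1.15.

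Marker genes of cell types moved in the same table. Of 13 neural progenitor markers, 2 lay above 0 and 2 were called lower (gfap and pax6a), and the summed level of the list was 523 to 537 FPKM in the morphants and 560 to 577 FPKM in the controls. Of 9 neuron markers none lay above 0 and none was called, and the 13 rows of that list, tested or not, summed to 102 to 106 FPKM in the morphants and 127 to 131 FPKM in the controls. The neural lists were not alone. Of 8 yolk syncytial layer markers 1 lay above 0 and 2 were called lower. Their median was -0.35, beside -0.11 for neural progenitor and -0.25 for neuron markers. Of 8 muscle markers 2 lay above 0 and 2 were called lower. Of 5 erythroid markers 3 lay above 0 and 1 was called lower, and of 12 embryonic skin markers 5 lay above 0 and 0 were called. The part of these shifts in the differences of the replication and mitosis genes was not tested.

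In magoh mutants at 21 hpf, none of the 43 rows was called by limma, beside 0% of 30281 genes tested, and limma-voom on recovered reads called 0 rows in any of the 3 mutant tables. Under an unadjusted limma p of 0.05, 1 of 43 rows passed, beside 4.4% of all genes (1332 genes). The median difference was 0.10 for the replication rows, with 11 of 20 above 0, and 0.20 for the mitosis genes, with 18 of 23 above 0, beside 0.05 over all genes. Under quantile normalization the medians were 0.01 and 0.02, beside 0.01 over all genes. The lowest adjusted p of a row was 0.85.

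The highest values lay in 1 mutant and 1 sibling library. mcm2 stood at 39.9, 15.5 and 10.2 FPKM under the mutant label, against 11.9, 17.7 and 10.2 FPKM under the sibling label, and pcna at 142, 27.6 and 22.2 FPKM under the mutant label, against 22.2, 60.9 and 19.3 FPKM under the sibling label. Mutant replicate 1 was the highest library for both, and sibling replicate 2 was second. aurka, the 1 row under an unadjusted p of 0.05, was 14.3, 10.3 and 8.497 FPKM under the mutant label, against 6.05, 8.38 and 7.05 FPKM under the sibling label. Its groups did not overlap with the mutants higher, 1 of 43 rows beside 1.93% of all genes, and its difference was 0.51 ± 0.21 with an adjusted p of 0.85 by limma. No row had the mutants lower without overlap, beside 2.04% of all genes. cdc20 had the largest mitosis difference, 0.64 ± 0.31, with 24.5, 6.69 and 2.86 FPKM under the mutant label, against 2.001, 10.7 and 3.26 FPKM under the sibling label, where the groups overlapped. mcm10 had the lowest difference of the replication rows, -0.41 ± 0.37, with 15.3, 11.5 and 7.76 FPKM under the mutant label, against 7.29, 36.7 and 10.3 FPKM under the sibling label. An alternative chosen after seeing the data left out mutant replicate 1 and sibling replicate 2 and also the fit's factor for unwanted variation between libraries. Its medians were 0.04 for replication and -0.01 for mitosis and none was called. With all libraries and no such factor they were 0.19 and 0.24.

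The same pair of libraries stood out across the roles at 21 hpf. Among replication genes mcm3, the least abundant MCM gene, was 31.6, 1.69 and 2.83 FPKM under the mutant label, against 4.01, 14.03 and 3.42 FPKM under the sibling label. orc1 was 10.5, 3.93 and 1.76 FPKM under the mutant label, against 1.54, 5.84 and 3.01 FPKM under the sibling label, and cdt1 was 7.76, 0.92 and 2.61 FPKM under the mutant label, against 1.77, 3.12 and 1.67 FPKM under the sibling label. In all 3 genes mutant replicate 1 was highest and sibling replicate 2 second, and their differences were -0.18 ± 0.28, 0.29 ± 0.30 and 0.25 ± 0.31. rrm2 (ENSDARG00000020711) was 51.2, 6.34 and 4.13 FPKM under the mutant label, against 3.48, 35.3 and 3.97 FPKM under the sibling label, and tyms was 8.03, 1.57 and 1.69 FPKM under the mutant label, against 1.13, 4.93 and 1.45 FPKM under the sibling label. These deoxynucleotide genes were several-fold higher in both of those libraries than in the other 4. gmnn, at 31.5, 14.1 and 15.1 FPKM under the mutant label, against 16.8, 32.4 and 13.4 FPKM under the sibling label, was highest in sibling replicate 2. cdc45 was not raised there, at 3.39, 6.43 and 5.61 FPKM under the mutant label, against 4.402, 4.99 and 5.25 FPKM under the sibling label, with mutant replicate 1 the lowest library.

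Mutant replicate 1 was the highest library for 18 of 23 mitosis genes, beside 16 of 20 replication rows and 31.6% of all genes. The median mitosis gene was 1.13 above its mean in the other libraries, less than the 1.61 of the replication rows. ccnb1 was 24.8, 5.16 and 6.702 FPKM under the mutant label, against 6.72, 10.4 and 5.82 FPKM under the sibling label, cdk1 was 12.3, 2.74 and 4.91 FPKM under the mutant label, against 3.98, 7.28 and 4.697 FPKM under the sibling label, and ccne2 was 7.86, 2.12 and 3.05 FPKM under the mutant label, against 2.51, 4.18 and 2.503 FPKM under the sibling label. All 3 were highest in mutant replicate 1 and overlapped between the groups. cdk2 was 40.8, 15.6 and 10.9 FPKM under the mutant label, against 10.5, 67.6 and 14.1 FPKM under the sibling label, highest in sibling replicate 2, and its difference was -0.31 ± 0.33. bub3 was 27.7, 15.9 and 13.9 FPKM under the mutant label, against 13.5, 6.497 and 18.2 FPKM under the sibling label, a difference of 0.60 ± 0.40 with sibling replicate 2 lowest. aurkb, the most abundant of the mitotic kinases, ran the other way with 20.01, 36.6 and 35.3 FPKM under the mutant label, against 44.5, 14.2 and 29.3 FPKM under the sibling label. Its 2 lowest libraries were mutant replicate 1 and sibling replicate 2. ttk was 9.605, 3.84 and 5.299 FPKM under the mutant label, against 4.71, 5.34 and 5.77 FPKM under the sibling label, and kif20a was 11.95, 3.39 and 2.85 FPKM under the mutant label, against 2.05, 7.97 and 2.05 FPKM under the sibling label. tpx2 was 28.6, 13.8 and 11.7 FPKM under the mutant label, against 11.2, 14.5 and 11.9 FPKM under the sibling label. The differences of ttk, kif20a and tpx2 were 0.09 ± 0.25, 0.35 ± 0.22 and 0.34 ± 0.23, and none passed. cenpe was 26.9, 7.26 and 8.24 FPKM under the mutant label, against 6.76, 15.3 and 8.91 FPKM under the sibling label, and mki67 was 22.01, 3.25 and 4.14 FPKM under the mutant label, against 3.62, 13.7 and 3.65 FPKM under the sibling label. Both were highest in mutant replicate 1 and second in sibling replicate 2.

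Summed marker lists of other tissues were also high in these 2 libraries, with the neuron sum high in mutant replicate 1 only. Summed embryonic skin markers (12 genes) were 5565 FPKM in mutant replicate 1 and 1408 FPKM in sibling replicate 2, beside 179 to 221 FPKM in the other 4 libraries. Yolk syncytial layer markers (10 genes) were 2805 and 886 FPKM in these libraries, beside 117 to 139.6 FPKM in the other 4, and muscle markers (13 genes) 1192 and 453 FPKM, beside 123 to 141 FPKM. Neuron markers (13 genes) were 138 and 77.5 FPKM, beside 90.0 to 109.7 FPKM in the other 4. No marker of these lists was at 0 in the magoh table, and their part in the level of the set was not tested.

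Measured across libraries, the level of the set ran against the share of reads that fell in rows with a gene symbol. In magoh mutant replicate 1 that share was 23.9% of the reads, and the median replication row was 1.61 above its mean in the other 5 libraries. In sibling replicate 2 the share was 37.8% and the replication median 0.84 above the others. In the remaining 4 libraries the share was 65.2% to 68.0% and the replication median differed from the others by -0.53 to -0.72. The part of this share in any difference of the set was not tested.

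**Figure D3:**
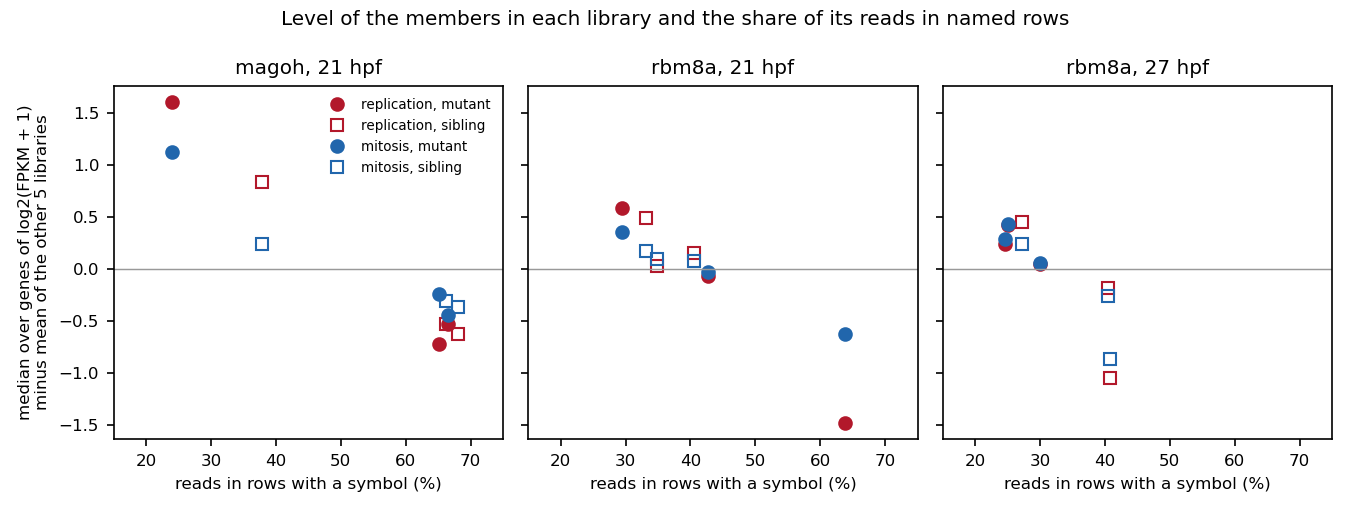
Median level of the replication rows and of the mitosis rows in each library, as the log2 difference from the other 5 libraries of its table, against the percent of its reads in rows with a gene symbol. In the magoh table the point at 23.9% lies at 1.61 for replication, and in the rbm8a table at 21 hpf the point at 63.8% lies at -1.48.

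In rbm8a mutants at 21 hpf none of the 43 rows was called, beside 0% of 30411 genes. No row had an unadjusted p under 0.05, beside 2.17% of all genes (660 genes). The medians were -0.06 for the replication rows and -0.06 for the mitosis genes, beside 0.00 over all genes, with 6 of 20 and 9 of 23 above 0. These medians depended on the factor of unwanted variation in the fit: with no such factor they were -0.45, with 2 of 20 above 0, and -0.23, with 5 of 23 above 0, and under quantile normalization they were -0.18, with 3 of 20 above 0, and -0.16, with 4 of 23 above 0. The groups did not overlap for kif20a alone, with the mutants lower, 1 of 43 rows beside 2.44% of all genes, and for no row with the mutants higher, beside 2.12%.

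Deoxynucleotide genes were among those with the lowest differences. rrm1 was 17.8, 3.26 and 10.2 FPKM under the mutant label, against 14.001, 18.6 and 17.9 FPKM under the sibling label, a difference of -0.45 ± 0.29. tyms was 4.604, 2.19 and 1.702 FPKM under the mutant label, against 4.09, 4.66 and 4.04 FPKM under the sibling label, a difference of -0.42 ± 0.29. The lowest library was mutant replicate 2 for rrm1 and mutant replicate 3 for tyms, and the groups of both genes overlapped. Among mitosis genes ccnb2 had 3.95, 3.04 and 5.38 FPKM under the mutant label, against 6.902, 4.38 and 5.95 FPKM under the sibling label, and cdk1 had 10.6, 6.99 and 4.42 FPKM under the mutant label, against 7.53, 10.9 and 9.21 FPKM under the sibling label. These gave the lowest mitosis differences, -0.33 ± 0.27 and -0.30 ± 0.35, and cenpe the highest, 0.28 ± 0.30. kif20a stood at 6.298, 4.58 and 5.64 FPKM under the mutant label, against 7.81, 7.04 and 6.61 FPKM under the sibling label. Mutant replicate 2 had 1561184 reads, 63.8% of them in rows with a symbol against 29.5% to 42.6% in the other 5. It was the lowest library for 17 of 20 replication rows and 17 of 23 mitosis genes, beside 40.8% of all genes. Of all genes, 34.5% were highest in it. Without it the medians were 0.07 and 0.03, and the part of its depth in the differences was not tested.

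In mutant replicate 2 the replication genes of the other roles were also low at 21 hpf. mcm2 was 23.6, 5.15 and 15.1 FPKM under the mutant label, against 17.1, 21.5 and 14.4 FPKM under the sibling label, and mcm6 was 17.6, 8.69 and 13.3 FPKM under the mutant label, against 12.6, 16.1 and 12.1 FPKM under the sibling label. pcna was 89.3, 11.5 and 50.5 FPKM under the mutant label, against 56.1, 73.9 and 70.3 FPKM under the sibling label. Each was lowest in mutant replicate 2 and highest in mutant replicate 1, so that the mutant label held both ends of the range, and the differences were -0.03 ± 0.26, 0.11 ± 0.26 and -0.22 ± 0.34. rrm2 (ENSDARG00000020711) was 35.3, 7.36 and 17.96 FPKM under the mutant label, against 21.6, 33.5 and 31.96 FPKM under the sibling label, a difference of -0.32 ± 0.35. gmnn was 25.8, 14.5 and 46.9 FPKM under the mutant label, against 50.1, 32.3 and 42.8 FPKM under the sibling label, a difference of -0.41 ± 0.42. cdc45 was 3.18, 4.16 and 2.19 FPKM under the mutant label, against 1.995, 3.19 and 2.92 FPKM under the sibling label, and unlike most of the set it was highest in mutant replicate 2.

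Marker lists of other tissues were low in that library as well. Summed embryonic skin markers were 274 FPKM in mutant replicate 2, beside 1029 to 2220.0 FPKM in the other 5 libraries. Yolk syncytial layer markers were 136 FPKM, beside 583 to 1100.3 FPKM, and muscle markers 144 FPKM, beside 344 to 533 FPKM. Neuron markers, at 83.0 FPKM, were not low beside 52.7 to 78.0 FPKM in the other 5. In mutant replicate 2, 1 of the 10 yolk markers was at 0, and the part of these lists in the level of the set was not tested.

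Mitosis genes of that table had the same low library with exceptions. ccnb1 was 15.5, 4.62 and 8.57 FPKM under the mutant label, against 10.4, 12.3 and 8.54 FPKM under the sibling label, and ccne2 was 5.98, 2.21 and 4.19 FPKM under the mutant label, against 3.52, 5.58 and 5.48 FPKM under the sibling label. plk1 was 13.8, 1.95 and 6.58 FPKM under the mutant label, against 10.7, 12.6 and 8.56 FPKM under the sibling label. All 3 were lowest in mutant replicate 2, and their differences were 0.07 ± 0.27, -0.02 ± 0.25 and -0.27 ± 0.26. ttk was 4.42, 3.28 and 6.17 FPKM under the mutant label, against 4.07, 4.28 and 4.13 FPKM under the sibling label, tpx2 was 17.4, 8.19 and 14.5 FPKM under the mutant label, against 12.2, 15.9 and 12.8 FPKM under the sibling label, and nusap1 was 6.49, 3.37 and 4.56 FPKM under the mutant label, against 4.796, 5.795 and 5.98 FPKM under the sibling label. These 3 were also lowest there. cenpe was 18.4, 8.74 and 20.5 FPKM under the mutant label, against 18.9, 14.6 and 11.2 FPKM under the sibling label, and cenpf was 8.17, 4.84 and 6.93 FPKM under the mutant label, against 7.73, 8.87 and 7.8004 FPKM under the sibling label. Both kinetochore genes were lowest in mutant replicate 2. aurkb was 7.43, 32.4 and 11.5 FPKM under the mutant label, against 15.5, 6.73 and 11.8 FPKM under the sibling label, highest in mutant replicate 2, and cdk2 was 14.1, 8.19 and 42.4 FPKM under the mutant label, against 33.4, 18.99 and 19.7 FPKM under the sibling label, highest in mutant replicate 3.

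At 27 hpf most rows were higher in the libraries labelled rbm8a mutant. Between libraries of a group, the list median had an SD of 0.51 for replication and 0.29 for mitosis. The median difference was 0.41 for the replication rows, with 18 of 20 above 0, and 0.38 for the mitosis genes, with 21 of 23 above 0, beside 0.01 over all genes. Under quantile normalization these medians were 0.05, with 13 of 20 above 0, and 0.15, with 18 of 23 above 0, and with 2 RUVs factors (terms for unwanted variation, of which the fit otherwise held 1) they were 0.16 and 0.22. Over the 14753 genes with an FPKM minimum of 2 the median of all genes was 0.24. None of the 43 rows was called, beside 0% of 28845 genes, and the lowest adjusted p of a row was 0.33. Under an unadjusted p of 0.05 there were 3 of 43 rows, 6.98% beside 14.8% of all genes (4283 genes).

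The MCM genes held the largest replication differences. mcm3 was 15.9, 10.3 and 16.1 FPKM under the mutant label, against 5.08, 13.8 and 6.07 FPKM under the sibling label, and mcm2 was 19.9, 14.1 and 22.1 FPKM under the mutant label, against 6.39, 19.1 and 12.1 FPKM under the sibling label. In both, sibling replicate 1 was the lowest library and sibling replicate 2 lay among the mutants. Their differences were 0.85 ± 0.36 and 0.67 ± 0.41, with adjusted p of 0.33 and 0.42 by limma. pcna was 93.5, 95.99 and 82.8 FPKM under the mutant label, against 35.1, 81.4 and 63.3 FPKM under the sibling label, a difference of 0.65 ± 0.43, and all 3 mutant libraries lay above the siblings. rrm1 was 20.2, 17.6 and 26.8 FPKM under the mutant label, against 6.22, 22.7 and 14.97 FPKM under the sibling label, a difference of 0.69 ± 0.46 with overlapping groups. mcm4 was 17.2, 15.98 and 19.7 FPKM under the mutant label, against 5.54, 17.8 and 11.7 FPKM under the sibling label, and mcm6 was 15.3, 11.2 and 13.4 FPKM under the mutant label, against 5.12, 12.2 and 8.71 FPKM under the sibling label. Both were lowest in sibling replicate 1, and their differences were 0.69 ± 0.41 and 0.64 ± 0.35. rrm2 (ENSDARG00000020711) was 27.9, 24.8 and 32.6 FPKM under the mutant label, against 10.5, 37.6 and 22.9 FPKM under the sibling label, highest in sibling replicate 2, and tyms was 4.18, 5.36 and 5.12 FPKM under the mutant label, against 2.21, 4.63 and 2.94 FPKM under the sibling label. cdc45 was 1.59, 2.11 and 2.88 FPKM under the mutant label, against 1.58, 3.79 and 2.07 FPKM under the sibling label, and cdt1 was 2.05, 3.11 and 3.49 FPKM under the mutant label, against 1.77, 2.69 and 2.097 FPKM under the sibling label. The differences of rrm2, tyms and cdc45 were 0.43 ± 0.47, 0.51 ± 0.27 and -0.06 ± 0.27, none of which passed. Licensing genes differed little, with cdc6 at 0.02 ± 0.30, gmnn at 0.05 ± 0.28, orc1 at 0.07 ± 0.20 and cdt1 at 0.29 ± 0.23.

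Among the mitosis genes ccnb1 was 13.9, 11.4 and 10.5 FPKM under the mutant label, against 4.94, 9.03 and 7.17 FPKM under the sibling label. Every mutant library was above every sibling, and the difference was 0.70 ± 0.30 with an adjusted p of 0.33 by limma. plk1 was 12.3, 9.04 and 11.3 FPKM under the mutant label, against 4.81, 8.799 and 7.18 FPKM under the sibling label, and cdk1 was 10.2, 8.97 and 10.2 FPKM under the mutant label, against 3.69, 8.81 and 6.61 FPKM under the sibling label. The groups of plk1 and cdk1 were also separate, with the lowest mutant just above sibling replicate 2, and the differences were 0.62 ± 0.30 and 0.62 ± 0.32. kif20a had 7.33, 5.81 and 6.75 FPKM under the mutant label, against 3.36, 5.87 and 3.04 FPKM under the sibling label, a difference of 0.66 ± 0.26 with groups that overlapped. cdc20 was 8.45, 8.21 and 9.66 FPKM under the mutant label, against 5.25, 8.16 and 6.05 FPKM under the sibling label, with the lowest mutant only just above sibling replicate 2. Altogether ccnb1, cdc20, cdk1, pcna and plk1 were higher without overlap, 5 of 43 rows or 11.6%, beside 10.5% of all genes, and no row was lower without overlap, beside 9.92%.

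**Figure D4:**
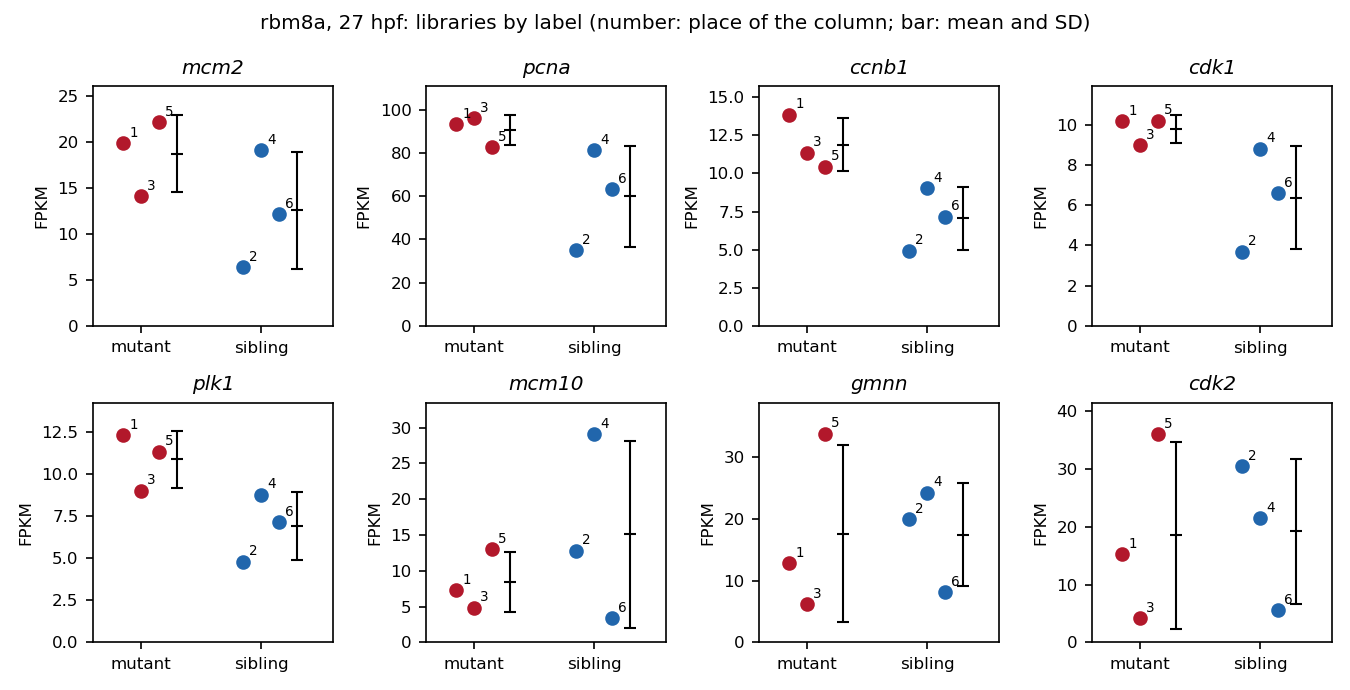
FPKM of 8 genes in each library of the rbm8a table at 27 hpf, mutants left of siblings, with the place of the column as a number and the mean and SD (n = 3) beside the points. For ccnb1 the mutants lie at 10.5 to 13.9 FPKM and the siblings at 4.94 to 9.03 FPKM, whereas mcm10, gmnn and cdk2 spread widely within both groups.

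The least abundant mitosis genes showed the same spread. ccnb2 was 3.12, 3.62 and 4.95 FPKM under the mutant label, against 2.16, 3.88 and 3.06 FPKM under the sibling label, and ttk was 4.86, 3.57 and 3.46 FPKM under the mutant label, against 1.78, 4.13 and 3.395 FPKM under the sibling label. racgap1 was 4.65, 4.55 and 4.63 FPKM under the mutant label, against 3.72, 5.22 and 3.83 FPKM under the sibling label. All 3 were lowest in sibling replicate 1, and their differences were 0.30 ± 0.25, 0.30 ± 0.28 and 0.12 ± 0.22. tpx2, the most abundant spindle gene, was 13.5, 11.2 and 14.9 FPKM under the mutant label, against 6.299, 16.004 and 10.04 FPKM under the sibling label, and cenpf was 6.52, 4.29 and 8.59 FPKM under the mutant label, against 7.43, 5.51 and 4.18 FPKM under the sibling label. tpx2 was lowest in sibling replicate 1, whereas cenpf was not.

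The size of the difference at 27 hpf rested on sibling replicate 1. It was the lowest library for 16 of 20 replication rows and 17 of 23 mitosis genes, beside 20.2% of all genes. Its replication median differed from the others by -1.05. Without sibling replicate 1 the medians were 0.05 for replication, with 13 of 20 above 0, and 0.20 for mitosis, with 22 of 23 above 0. Without sibling replicate 2 they were 0.69 and 0.58, 15 of 43 rows had an unadjusted p under 0.05, beside 21.5% of all genes in that fit, and none was called, although 370 genes were called higher and 242 lower. The share of reads in rows with a symbol was 24.5% to 29.9% in the libraries labelled mutant and 40.8%, 27.2% and 40.5% in those labelled sibling. The part of that share in the higher level of the set was not tested.

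Other gene groups were also higher in the libraries labelled mutant at 27 hpf, with no gene called. Of 49 further mitosis genes 46 lay above 0, with a median of 0.30, and of 40 further replication genes 29 lay above 0, with a median of 0.20. The neural progenitor markers had a median of 0.60, with 11 of 13 above 0 and sums of 124 to 146 FPKM in mutants and 64.7 to 118 FPKM in siblings. Muscle markers had a median of 0.56, with 13 of 13 above 0 and sums of 850 to 1233 FPKM in mutants and 511 to 775 FPKM in siblings. Embryonic skin markers had a median of 0.75, with 12 of 12 above 0 and sums of 2137 to 3156 FPKM in mutants and 956 to 2092 FPKM in siblings. No marker of these lists was at 0 in any library. The part of cell type markers in the differences of the set was not tested.

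By place, the 27 hpf table read the other way for replication. All 20 replication rows and 18 of 23 mitosis genes were lower in the first 3 columns than in the last 3, beside 48.9% of all genes, and the medians of the first 3 minus the last 3 were -0.43 and -0.14, beside 0.01 over all genes. pola1 had 3.54, 3.13 and 2.29 FPKM in the first 3 columns and 5.03, 6.62 and 3.78 FPKM in the last 3. nusap1 had 6.61, 3.58 and 5.91 FPKM in the first 3 columns and 7.69, 9.22 and 7.69 FPKM in the last 3. These were the 2 of 43 rows in which the first 3 columns lay below the last 3 with no overlap, beside 3.45% of all genes, and no row had them above, beside 3.19%. rrm1 had 20.2, 6.22 and 17.6 FPKM in the first 3 columns and 22.7, 26.8 and 14.97 FPKM in the last 3, with overlap, and the row of cenpe was the highest of the set by place, 0.66 above in the first 3, with 15.2, 21.1 and 8.34 FPKM in the first 3 columns and 11.7, 9.17 and 5.58 FPKM in the last 3. Without sibling replicate 1, which is among the first 3 columns, the medians by place were -0.04 and 0.02, and 13 of 20 replication rows were below 0.

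The further replication and mitosis lists read alike by place at 27 hpf, whereas other lists went both ways. Of 40 replication genes 31 were below 0, and pold1, rfc4 and pole were lower in the first 3 columns without overlap. Of 49 mitosis genes 40 were below 0, and kif4, hmmr and cks2 were lower without overlap. Of 22 genes in the list of cyclins, CDK inhibitors, btg and tob genes 6 were below 0, with a median of 0.16. In that list cdkn1ba, cdkn1a and ccng1 were higher in the first 3 columns without overlap and none was lower. Of 23 transcription regulators of the cell cycle 8 were below 0, with a median of 0.05. Marker medians were 0.06 for neural progenitor, 0.13 for muscle and 0.16 for embryonic skin. They were -0.05 for neuron, -0.10 for yolk syncytial layer and -0.51 for erythroid markers.

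In the rbm8a table at 21 hpf the medians by place were -0.35 for replication, with 17 of 20 below 0, and -0.16 for mitosis, with 18 of 23 below 0, beside -0.03 over all genes. The reading by place held no factor for unwanted variation. By label with no such factor the medians were -0.45 and -0.23. cdt1 had 4.05, 3.55 and 5.89 FPKM in the first 3 columns and 3.24, 2.61 and 2.53 FPKM in the last 3, and bub3 had 7.54, 10.4 and 11.2 FPKM in the first 3 columns and 6.74, 4.47 and 5.79 FPKM in the last 3. These 2 of 43 rows were higher in the first 3 columns without overlap, beside 2.88% of all genes, and orc1 alone was lower, beside 2.47%, with 3.56, 3.89 and 1.78 FPKM in the first 3 columns and 5.21, 6.48 and 4.102 FPKM in the last 3. The column of mutant replicate 2 is among the first 3 of that table, and without it the medians by place were 0.09 and 0.03. In the magoh table the medians by place were 0.15 and 0.24, beside 0.02 over all genes, and 0 of 43 rows were without overlap, beside 1.87% above and 2.34% below. Without mutant replicate 1, which is among the first 3 columns, the magoh medians by place were -0.53 and -0.30.

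mcm10, gmnn and cdk2 varied together at 27 hpf and unlike most of the set. mcm10 was 7.35, 4.87 and 13.04 FPKM under the mutant label, against 12.8, 29.1 and 3.34 FPKM under the sibling label. gmnn was 12.8, 6.19 and 33.7 FPKM under the mutant label, against 19.97, 24.2 and 8.07 FPKM under the sibling label. cdk2 was 15.3, 4.21 and 36.1 FPKM under the mutant label, against 30.4, 21.6 and 5.64 FPKM under the sibling label. The lowest values of all 3 genes were those of mutant replicate 2 and sibling replicate 3, whereas sibling replicate 1, in which most of the set was lowest, was not among them. cenpe, cenpf, orc1 and bub1 were also lowest in mutant replicate 2 and sibling replicate 3, so this was not particular to the 3 genes. mcm10, gmnn and cdk2 differed between mutants and siblings by -0.26 ± 0.42, 0.05 ± 0.28 and 0.09 ± 0.30. mcm10, gmnn and cdk2 were picked after their values were seen and get no test. aurkb, which does not follow the rest either, was 7.497, 8.28 and 12.6 FPKM under the mutant label, against 16.1, 7.23 and 8.74 FPKM under the sibling label, highest in sibling replicate 1.

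Some rows are limited by how genes are annotated. The row of mcm7, ENSDARG00000101180, carried no symbol in the tables and was not counted. By that ID it had 384 and 344 FPKM in upf1 morphants, against 398 and 393 FPKM in controls, and 28.0, 19.8 and 24.3 FPKM under the rbm8a mutant label at 27 hpf, against 14.2, 23.3 and 12.8 FPKM under the sibling label. Of 45 entries for the set in the RefSeq annotation of GRCz12tu, 15 overlap another protein-coding gene, such as pcna with trim69, kif20a with cdc23 and cdk2 with sarnp. mcm2 overlaps 9 other entries, among them s1pr4 and podxl2, and top2a overlaps samd14 and nusap1 overlaps ndufaf1. The libraries of the mutant tables kept the strand, but whether the counting used it is not given in the sources used here, so reads of such pairs may not be told apart.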

How the data were processed

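Gene expression was measured by RNA-Seq of pooled whole embryos, in 3 mutant and 3 sibling libraries in each of 3 mutant tables and in 2 morphant and 2 control libraries in the upf1 table. The authors trimmed reads with cutadapt 1.16, aligned them with TopHat2 2.0.14 to GRCz10, counted them per gene and deposited FPKM values from DESeq2, scaled within each table. A further deposited column holds a signal per gene, the authors' mean of counts divided by size factors, from which whole reads were recovered; 100% of the values under 200 reads lay within 0.05 of a whole number. The read numbers give the depth of each library, and counting error only is covered by them. Deposited columns with the authors' own fold changes and p-values were not used.

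Genes that reached an FPKM of 0.5 in 3 or more libraries of a mutant table, or 2 or more of the upf1 table, were tested on log2(FPKM + 1) with limma 3.58.1 in R 4.3.3. Mutant fits held 1 factor of unwanted variation, estimated from replicate libraries (RUVs), which is why a fitted difference can depart from the difference of the plotted means. Groups came from the sample labels. All 43 rows passed the filter in each table. The fits were also run on simulated data in which the labels were taken as true, so these runs cannot check the labels. Tables and figures were made with Python 3.11.15, pandas 2.3.3 and matplotlib 3.10.9.

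Values per library were given for the 4 replication and 4 mitosis genes with the largest difference in each table, the most and least abundant gene of each role, mcm2, pcna, ccnb1 and cdk1, and any gene called; other genes were given where they illustrate a role. The genes and the lists were chosen with earlier results of these data known. Alternatives were pseudocounts, filters, quantile normalization, voom on recovered reads, other numbers of RUVs factors, the replicate block and leaving out libraries. Promoter motifs and sequences were not analysed here. Immunoprecipitated samples and 1 wild-type sample, whose table lists transcripts, were not used.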

Additional observations from a re-analysis of the deposited data

How the results depend on the processing

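With no fold threshold, 16 of the 43 rows passed in upf1 morphants, against 0 at 1.5-fold. Under quantile normalization the upf1 median of the mitosis genes was -0.079. Rows without overlap by place were then 6 of 43 in the rbm8a table at 21 hpf, 2 above and 4 below, against 3 as deposited. At 27 hpf they were 12 of 43, 0 above and 12 below, against 2 as deposited. Of all genes, 3.45% lay above and 2.2% below at 21 hpf, and 3.52% and 4.39% at 27 hpf. Leaving out 1 library at a time gave 0 to 9 such rows for magoh (9 without mutant replicate 1), 3 to 16 for rbm8a at 21 hpf (16 without mutant replicate 1) and 2 to 17 at 27 hpf (17 without sibling replicate 3). In those 3 cases 9.22% of all genes lay above and 11.4% below, 7.78% and 8.92%, and 11.1% and 9.72%. Of the 43 rows, 1 lay above and 8 below, 5 and 11, and 0 and 17. Without sibling replicate 1 at 27 hpf, 3 rows lay above and 2 below, beside 19.8% and 15.9% of all genes. The 16 upf1 rows kept their direction in 10 other settings. Over single genes, only these 16 rows had passed in the main fits, so only they could cease to pass the threshold. Most values that stayed on their side of it belonged to rows that had not passed. With no filter on low values, 2 of the 43 rows passed higher and 5 lower in upf1 morphants, against 3 and 13 with the filter. At an unadjusted limma p under 0.05 there were 25 rows without the filter, beside 26.2% of all genes. With the filter there were 27, beside 38.9%. Counts over all genes moved at 27 hpf to 25 higher and 7 lower with 2 RUVs factors and to 0 and 3 at an FPKM minimum of 2, at 21 hpf for rbm8a to 1 and 25 without mutant replicate 1, and for upf1 to 384 and 517 with a pseudocount of 0.1 and 435 and 587 with voom. The causes were not tested.

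Same-numbered libraries did not deviate together in the mutants, with correlations of -0.78 to 0.64, and upf1 had 2 pairs at 0.18, so numbers were not taken as pairs. With the replicate block, which replaced the RUVs factor, replication and mitosis medians were 0.19 and 0.24 for magoh and -0.45 and -0.23 for rbm8a at 21 hpf. They were 0.40 and 0.35 at 27 hpf and -0.14 and -0.05 for upf1, with 0 rows called. Every replicate number occurs in both groups of a table, so the block cannot change a group difference. These medians are therefore those of the fits with no RUVs factor, and for upf1 those of the main fit. At no fold threshold the block gave 4 rows higher and 19 lower for upf1. At an unadjusted limma p under 0.05 it gave 29 of 43 rows, beside 43.7% of all genes.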
